A study of Mus musculus with 9 samples.

Results

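The genes described here are 43 genes of DNA replication in mouse embryonic stem cells, from the helicase that unwinds the origin to the enzymes that supply deoxynucleotides. They were chosen as a list by gene symbol and matched to array features that carry 1 symbol, with the brightest feature kept where a gene had several. All 43 of 43 listed genes were measured, among 19938 genes in all. They comprised 6 subunits of the MCM helicase, 5 subunits of the origin recognition complex, 3 licensing factors, 5 helicase activators, 6 genes of the sliding clamp and its loader, 8 polymerase and primase subunits, 2 subunits of the single-strand binding protein RPA, 2 genes of flap and nick processing, 4 genes of nucleotide supply and 2 E-type cyclins.

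Total RNA of 3 groups of cells was hybridised to an Affymetrix whole-transcript array, with 3 arrays per group and 9 in all. Null Eα cells lacked both alleles of the β-catenin gene and stably expressed E-cadherin fused to α-catenin, null cells lacked both alleles without the fusion, and flox cells, the controls, had lost 1 allele and carried the other in floxed form, so no group had both alleles intact. Every group had the mixed S129S6-C57BL/6 background and was grown on gelatin in medium with 15% FCS and 1000 U/ml leukaemia inhibitory factor (LIF), then collected before confluence. The series calls the arrays of a group biological replicates, but does not say whether they were independent lines or cultures of 1 line, nor what promoter drove the fusion. Genotype and line therefore cannot be told apart, and the p-values measure only the spread between these samples.

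All values are log2 RMA signals, in which 1 unit is a doubling, and they compare a gene with itself across groups, not with other genes. Replicate arrays correlated at 0.986 to 0.990 in null Eα, 0.991 to 0.992 in null and 0.995 to 0.997 in flox cells. Features spread over an interquartile range of 3.21 to 3.37 in null Eα, 3.41 to 3.46 in null and 3.75 to 3.84 in flox cells, and bright genes read lower as a group in both lines without β-catenin. The features of the replication genes read high: all 43 lay above the array median on every array, and 38 lay above the upper quartile. The counts over the 43 genes are therefore set beside the shares over all genes and over the 8600 genes in their level range. The mean of each of these 8600 lay within the range of the 43 (6.86 to 11.33). Counts of smaller groups are to be read against the same shares. Groups whose arrays did not overlap were common. Over all genes they made up 69.5% for null Eα against flox, 67.4% for null against flox and 43.1% for null Eα against null. Within the level range the shares were 76.9%, 80.6% and 56.6%. Ctnnb1, the β-catenin gene, read 10.13 to 10.32 in null Eα, 10.47 to 10.55 in null and 11.13 to 11.21 in flox cells. Its value covers the whole transcript cluster, so it does not test the deletion.

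Markers of the labelled cell type differed between the groups. The summed linear signal of 8 embryonic stem cell markers was 16492 to 17371 in null Eα, 5512 to 6203 in null and 22365 to 22445 in flox cells. Against flox cells, 5 of 8 were called lower in null Eα and 8 of 8 in null cells. Over all genes 31.6% were called lower in null Eα and 28.7% in null cells. Pou5f1, the core pluripotency factor Oct4, differed from flox by -0.09 ± 0.07 in null Eα and by -0.65 ± 0.07 in null cells, and Nanog by -0.51 ± 0.12 (0.10 with each chromosome centred) and -2.46 ± 0.12 (limma standard errors). The summed signal of 13 fibroblast markers was 6388 to 7746 in null Eα, 11688 to 12904 in null and 3329 to 3523 in flox cells, with 11 of 13 called higher in null Eα and 12 of 13 called higher in null than in flox cells. The shares called higher over all genes were 32.1% in null Eα and 26.5% in null cells. No marker can read 0 on this scale. Both marker sets thus moved with the groups compared here, and their part in the results below was not tested. In such bulk samples, fewer cells in S phase and less RNA per cell cannot be told apart either.

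Eukaryotic DNA replication is prepared in G1, when the origin recognition complex, with Cdc6 and Cdt1, loads the MCM helicase at origins. In S phase, Cdc45, the GINS complex and the cyclin E and Dbf4-dependent kinases turn the loaded helicase on, and polymerase α with primase, polymerase ε and polymerase δ copy the strands, the last tethered by the PCNA clamp. Many of these genes are transcribed at the G1/S boundary by E2F factors, which the retinoblastoma family of pocket proteins holds in check. Embryonic stem cells have a short G1 phase and spend much of their cycle in S phase, and they carry high levels of many of these transcripts.

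The comparison of null with flox cells asks what differs once the second β-catenin allele is gone. Most replication genes were lower in null cells. With limma and a Benjamini-Hochberg adjusted p under 0.05 over all genes, 32 of the 43 genes were called lower, 4 were called higher and 7 were not called. Over all genes, 28.7% were called lower and 26.5% higher, and within the level range 46.2% were called lower and 25.9% higher. The median difference of the 43 genes was -0.54, against 0.06 over all genes and -0.18 within the level range. At least 2-fold falls were found in 10 of the 43, against 10.2% of all genes and 17.4% of those in the level range. The largest were in Pole2 and Rfc5, whose null signal was 25.2% and 25.7% of the flox signal on the linear scale.

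In null Eα cells, set against the same flox arrays, 29 of the 43 genes were called lower and 4 higher. The background shares were 31.6% lower and 32.1% higher over all genes, and 53.7% lower and 17.8% higher within the level range. The median difference was -0.57, against 0.07 over all genes and -0.32 within the level range, and 9 of the 43 fell at least 2-fold, against 9.75% and 17.5%. Of these 9, 5 lie on chromosomes 6, 8 and 11, described below, and 4 are among the 33 genes elsewhere (12.1%). After quantile normalization, which forces 1 distribution on all arrays, 21 genes were called lower and 11 higher in null Eα cells, with a median of -0.25, so the split between falls and rises in that line depends on the scaling. Of all 19938 genes, 5002 were called lower (25.1%) and 5318 higher after that normalization. The 4 rises were 1 without flox replicate 2, and 2 without null Eα replicate 2 or 3 or flox replicate 1 or 3. In null cells the 4 scalings tried left medians of -0.45 to -0.34, and 26 genes were called lower as deposited and under each of the 4. Over all genes 23.4% to 27.2% were called lower in null cells under the single scalings. Of these scalings, centring each chromosome on its brighter genes raised the median of all genes to 0.31 in null Eα and 0.21 in null cells, and values given with each chromosome centred are to be read against that shift. Summed over the 43 genes, the linear signal was 40339 to 40494 in null Eα, 36156 to 40413 in null and 57344 to 59302 in flox cells, and the flox arrays did not overlap with the others.

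**Figure D1:**
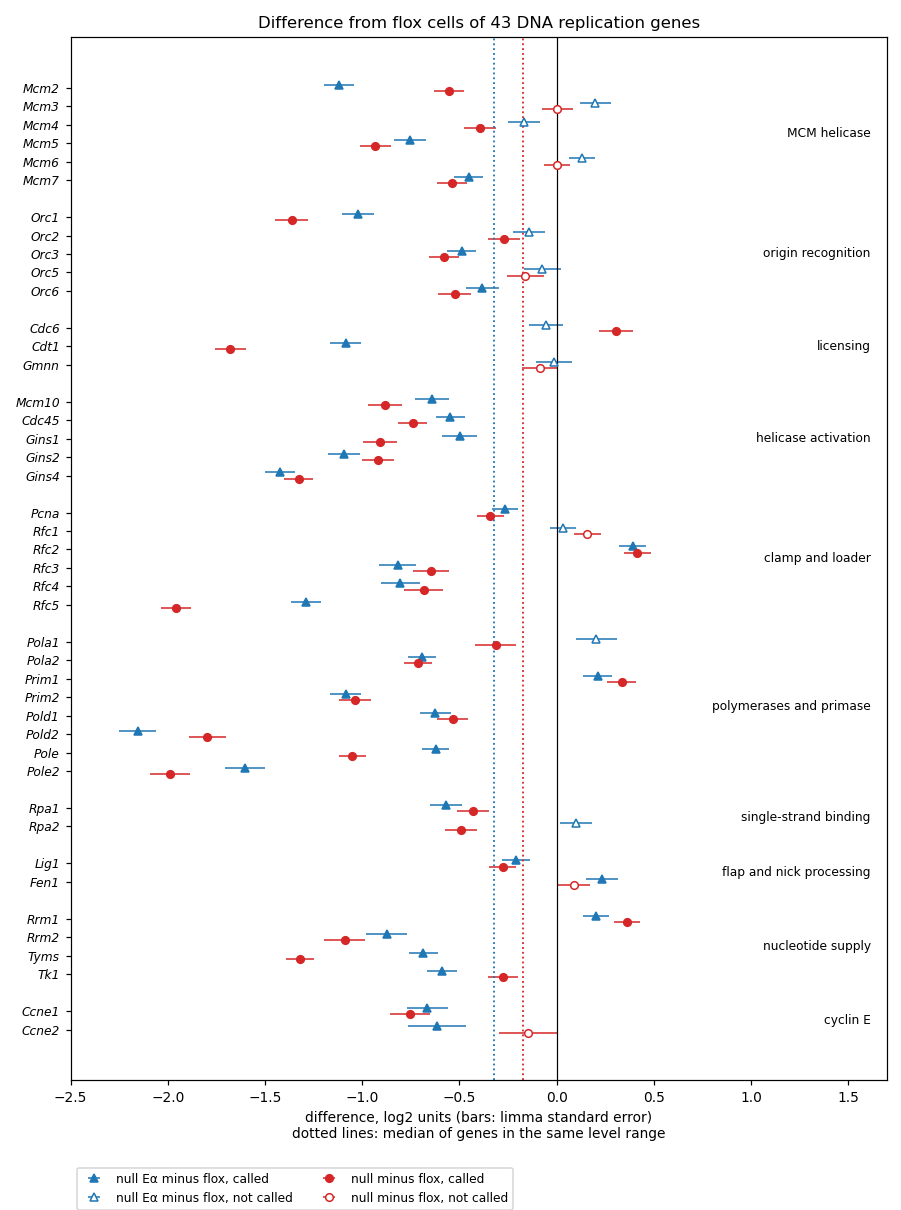
Difference of each of the 43 replication genes from flox cells (log2 units, horizontal axis), grouped by role, with triangles for null Eα and circles for null cells; filled symbols were called by limma and bars are its standard errors. Most symbols lie left of 0 and left of the dotted lines, which mark the medians of genes in the same level range (-0.32 for null Eα and -0.18 for null), and Rfc2, Prim1 and Rrm1 lie right of 0 in both lines.

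**Figure D2:**
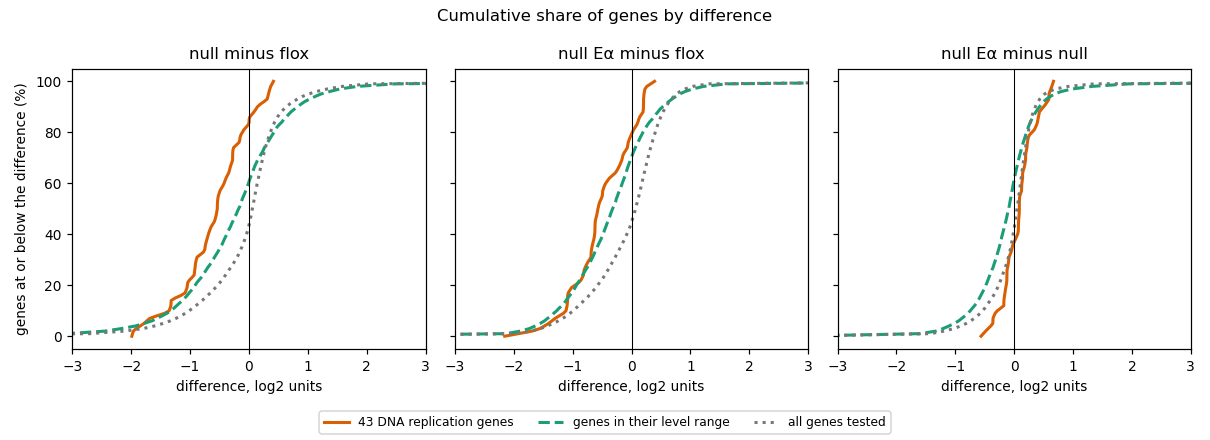
Cumulative share of genes (percent, vertical axis, drawn through percentiles) by log2 difference (horizontal axis) for the 43 replication genes, the 8600 genes in their level range and all 19938 genes, in each of the 3 comparisons. The replication genes lie left of both other curves at the median in the comparisons with flox cells (-0.57 for null Eα and -0.54 for null), and close to the curve of all genes for null Eα minus null (median 0.09 against 0.05).

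Promoter sequence was examined because so many of the genes moved in 1 direction. RefSeq promoter windows of the GRCm38.p6 assembly, 250 bases before to 50 bases after each transcript start, were at hand for 34 of the 43 genes. They were searched on both strands for the E2F words TTTCCCGC, TTTGGCGC, TTTCGCGC and TTTGCCGC, for CCAAT (the word bound by NF-Y), and for TTTGAA and TTCGAA, forms of the cell cycle homology region (CHR). An E2F word stood in 13 of the 34 windows (38.2%), against 2.6% of all 27025 genes with a window and 5.29% of the 6981 in the level range. The share was 52.9% among genes of E2F, pocket proteins and S phase entry, 28.6% among other replisome genes and 4.76% among genes of mitosis. CHR words stood in 17.6% of the replication genes, 35.3% of the E2F and S phase entry genes, 21.4% of the other replisome genes and 81.0% of the genes of mitosis, against 21.7% of all genes and 16.0% of those in the level range. CCAAT stood in 58.8% of the replication genes, against 41.1% of all genes and 43.6% of those in the level range. Median GC content was 61.3% in the replication genes, 53.3% over all genes and 62.7% in the level range.

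Genes with and without the word both included falls in null cells. Of the 13 genes with an E2F word, 10 were called lower and 1 higher in null cells, with a median difference of -0.54, and of the 21 without one 16 were called lower and 2 higher, with a median of -0.53, beside the 46.2% called lower in the level range. These are descriptions of letters in a window, and they show neither a bound site nor its absence. The stretches printed below are those of some genes that fell, of Mcm6, which was not called while Mcm5 fell, and of Cdc6, the partner of Cdt1. E2F words are more frequent among them than among the replication genes with a window. Tyms (-1.32) and Rrm2 (-1.09), which fell more than Orc3 and Rfc3 in null cells and hold no E2F word, are not printed. Positions count from the transcript start, with 1 the first base of the transcript and -1 the base before it.

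**Figure D3:**
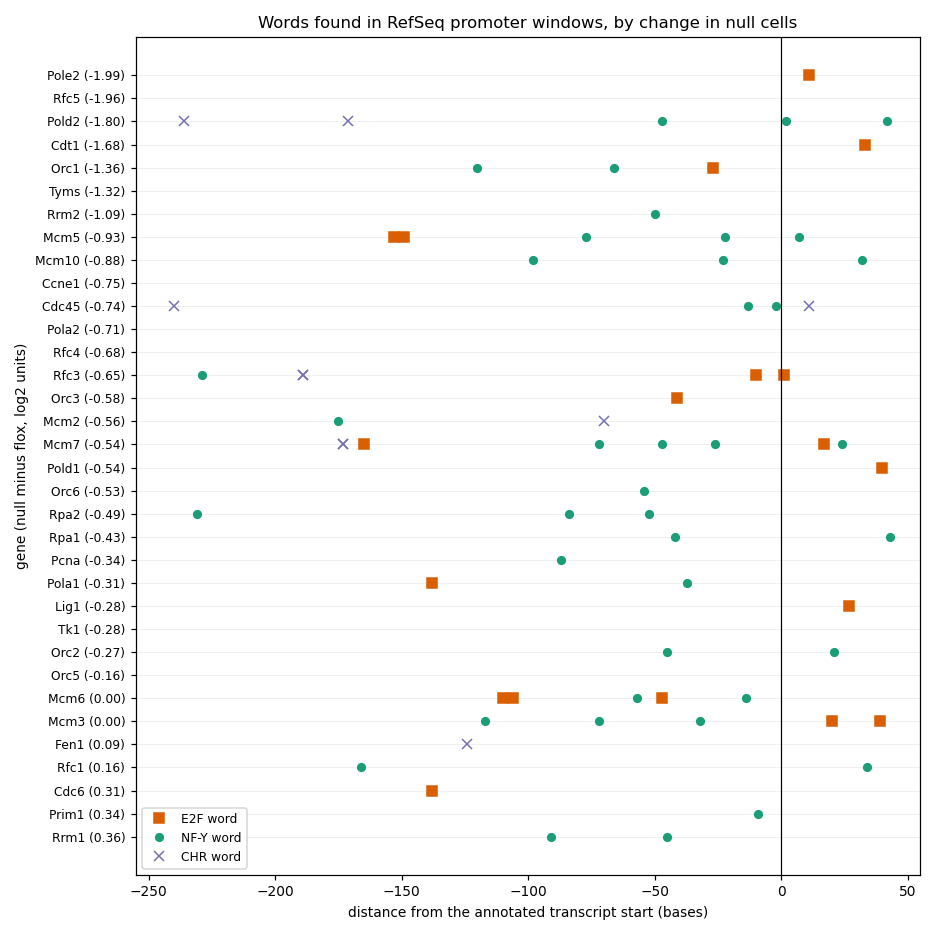
Positions of E2F words (squares), NF-Y words (circles) and CHR words (crosses) relative to the transcript start (bases, horizontal axis) in the windows of 34 replication genes, ordered from the largest fall to the largest rise in null cells (log2 difference in brackets). E2F words occur from the top of the order (Pole2, -1.99) to near its bottom (Cdc6, 0.31).

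The MCM genes encode the 6 subunits of the replicative helicase, which work as 1 ring. Of the 6, 3 were called lower in null Eα (50.0%, against 53.7% in the level range) and 4 in null cells (66.7%, against 46.2%), and Mcm3 and Mcm6 were not called in either line. Mcm2 read 10.30, 10.25 and 10.22 on the null Eα arrays, 10.95, 10.83 and 10.69 on the null arrays, and 11.36, 11.36 and 11.40 on the flox arrays. The 3 groups did not overlap, and null Eα was lowest. Mcm2 was lower in both lines, at -1.12 ± 0.08 in null Eα and -0.56 ± 0.08 in null cells (adjusted p = 1.12e-06 and 0.000143). Mcm2 lies on chromosome 6, and with each chromosome centred its differences were -0.51 and -0.34, both still called. Mcm5 read 10.65, 10.65 and 10.65 on the null Eα arrays, 10.62, 10.47 and 10.33 on the null arrays, and 11.41, 11.39 and 11.43 on the flox arrays, so both lines lay below every flox array. It fell, with differences from flox of -0.76 ± 0.08 in null Eα and -0.93 ± 0.08 in null cells (adjusted p = 2.32e-05 and 3.89e-06). Mcm5 lies on chromosome 8, and with each chromosome centred its null Eα difference was -0.10 and was not called. Mcm7 fell in both lines, with differences of -0.45 ± 0.08 in null Eα and -0.54 ± 0.08 in null cells (adjusted p = 0.000558 and 0.000159), and Mcm4 differed by -0.17 ± 0.08 in null Eα (adjusted p = 0.0991) and fell by 0.39 ± 0.08 in null cells (adjusted p = 0.00222).

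Mcm6 read 10.81, 10.85 and 10.83 on the null Eα arrays, 10.77, 10.72 and 10.62 on the null arrays, and 10.67, 10.70 and 10.73 on the flox arrays. The null and flox arrays overlapped, and the differences from flox were 0.13 ± 0.07 in null Eα and 0.00 ± 0.07 in null cells (adjusted p = 0.117 and 0.975). Mcm3 read 11.04, 11.03 and 10.98 on the null Eα arrays, 10.90, 10.90 and 10.67 on the null arrays, and 10.78, 10.88 and 10.81 on the flox arrays, with differences of 0.20 ± 0.08 in null Eα and 0.00 ± 0.08 in null cells (adjusted p = 0.0522 and 0.973). Both genes were called higher in null Eα than in flox cells under all 4 scalings (Mcm3 by 0.28 to 0.44, Mcm6 by 0.21 to 0.38), so their null Eα level is not shown to equal that of flox cells. Mcm3 was also called without null replicate 3. The promoters of Mcm5 and Mcm6 are shown because the 2 subunits differ in their change and yet both hold an overlapping pair of E2F words on opposite strands, at -153 to -142 and at -110 to -99, and Mcm6 holds another at -47 to -40. Capitals mark the words in the 180 bases before the start of Mcm5 (chr8:75109329-75109508, plus strand) and Mcm6 (chr1:128359706-128359885, minus strand):
Mcm5: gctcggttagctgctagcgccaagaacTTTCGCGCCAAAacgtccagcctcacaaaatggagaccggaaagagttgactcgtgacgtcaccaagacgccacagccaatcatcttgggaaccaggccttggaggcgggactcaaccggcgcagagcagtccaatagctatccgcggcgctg
Mcm6: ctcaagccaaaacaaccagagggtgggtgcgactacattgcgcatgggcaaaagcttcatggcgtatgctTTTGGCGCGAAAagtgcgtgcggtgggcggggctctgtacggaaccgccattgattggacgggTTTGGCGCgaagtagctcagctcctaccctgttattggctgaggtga

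The origin recognition complex marks origins and recruits the other loading factors. Of its 5 listed subunits, 3 were called lower in null Eα (60.0%, against 53.7% in the level range) and 4 in null cells (80.0%, against 46.2%). Orc1, the largest subunit, whose level varies over the cell cycle in human cells, read 7.99, 7.94 and 7.82 on the null Eα arrays, 7.67, 7.54 and 7.52 on the null arrays, and 8.85, 8.92 and 9.05 on the flox arrays. The groups did not overlap, with null lowest and flox highest. Orc1 was lower in both lines, at -1.02 ± 0.08 in null Eα and -1.36 ± 0.08 in null cells (adjusted p = 3.2e-06 and 3.07e-07), which left 49.3% and 38.9% of the flox signal. Orc3 fell, with differences from flox of -0.49 ± 0.08 in null Eα and -0.58 ± 0.08 in null cells (adjusted p = 0.000334 and 9.03e-05), and quantile normalization ended the null Eα call (-0.15). Orc6, on chromosome 8, fell in both lines, with differences of -0.38 ± 0.09 in null Eα and -0.53 ± 0.09 in null cells (adjusted p = 0.00322 and 0.000427), and these differences turned to 0.28 and 0.04 with each chromosome centred. Orc2 fell by 0.27 ± 0.08 in null cells (adjusted p = 0.0171), a call lost under 3 scalings (-0.18 to -0.05) and without null replicate 2, null replicate 3 or flox replicate 3. Orc5 differed by -0.07 ± 0.09 in null Eα and -0.16 ± 0.09 in null cells (adjusted p = 0.512 and 0.175), with arrays of both lines overlapping flox, and was called lower in null cells without null replicate 1 (-0.25). Orc1 and Orc3 are shown as the subunits with the largest falls, each with an E2F word close to the start, at -27 to -20 in Orc1 (chr4:108579274-108579453, plus strand) and at -41 to -34 in Orc3 (chr4:34614943-34615122, minus strand):
Orc1: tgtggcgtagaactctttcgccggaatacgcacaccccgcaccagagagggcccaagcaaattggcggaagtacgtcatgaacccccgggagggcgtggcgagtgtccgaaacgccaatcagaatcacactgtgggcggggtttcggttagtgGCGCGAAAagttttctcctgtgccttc
Orc3: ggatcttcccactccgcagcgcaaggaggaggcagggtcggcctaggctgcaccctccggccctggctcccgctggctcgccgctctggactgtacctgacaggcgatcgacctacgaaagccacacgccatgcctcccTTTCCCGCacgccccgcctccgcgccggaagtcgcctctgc

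Of the 3 licensing genes, Cdt1 fell in both lines, Cdc6 rose in null cells and Gmnn was not called. Cdt1, which brings MCM to the origin, read 10.20, 10.20 and 10.04 on the null Eα arrays, 9.64, 9.58 and 9.45 on the null arrays, and 11.21, 11.29 and 11.20 on the flox arrays. Null was lowest and flox highest, with no overlap between any groups. Cdt1 was lower in both lines, at -1.08 ± 0.08 in null Eα and -1.68 ± 0.08 in null cells (adjusted p = 1.62e-06 and 5.92e-08), which left 47.1% and 31.3% of the flox signal. Cdt1 lies on chromosome 8, and with each chromosome centred its differences were -0.43 and -1.11, both still called. Cdc6, the loading ATPase that works with Cdt1, read 9.17, 9.18 and 9.20 on the null Eα arrays, 9.67, 9.59 and 9.37 on the null arrays, and 9.15, 9.26 and 9.30 on the flox arrays. Every null array was above the flox arrays, and the null Eα arrays lay among them. Cdc6 rose by 0.31 ± 0.09 in null cells (adjusted p = 0.0127, lost without flox replicate 1) and differed by -0.06 ± 0.09 in null Eα cells (adjusted p = 0.586). After quantile normalization, cyclic loess or chromosome centring the null Eα difference of Cdc6 was 0.24 to 0.55 and called higher. Gmnn, which encodes geminin, the inhibitor of Cdt1, differed from flox by -0.01 ± 0.09 in null Eα and -0.09 ± 0.09 in null cells (adjusted p = 0.893 and 0.445). Both loading factors hold an E2F word, Cdt1 within its transcript at 33 to 40 (28 bases from chr8:122568037-122568064, plus strand) and Cdc6 at -138 to -131 (chr11:98907971-98908150, plus strand):
Cdt1: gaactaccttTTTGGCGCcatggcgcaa
Cdc6: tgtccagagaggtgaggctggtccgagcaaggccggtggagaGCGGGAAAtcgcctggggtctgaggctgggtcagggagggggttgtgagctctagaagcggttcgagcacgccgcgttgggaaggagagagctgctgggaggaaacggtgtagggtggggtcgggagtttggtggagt

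The 5 listed helicase activators, which help turn the loaded helicase into an active fork, moved in 1 direction. All 5 were called lower in null Eα and in null cells, against 53.7% and 46.2% in the level range. Other genes of this step, such as those of the Dbf4-dependent kinase, are among the other replisome factors below, which held falls and rises. The differences of the 5 activators were -1.42 to -0.50 in null Eα and -1.33 to -0.74 in null cells. Gins4, a subunit of the GINS complex, read 9.30, 9.35 and 9.16 on the null Eα arrays, 9.42, 9.34 and 9.34 on the null arrays, and 10.64, 10.72 and 10.72 on the flox arrays. The 2 lines without β-catenin overlapped each other and lay over 1 unit below every flox array. Gins4 fell, with differences from flox of -1.42 ± 0.07 in null Eα and -1.33 ± 0.07 in null cells (adjusted p = 2.01e-07 and 1.83e-07). Gins2, another GINS subunit, read 7.79, 7.81 and 7.97 on the null Eα arrays, 8.09, 7.98 and 8.02 on the null arrays, and 8.90, 8.89 and 9.07 on the flox arrays, again with both lines below flox. It fell in both lines, with differences of -1.09 ± 0.08 in null Eα and -0.92 ± 0.08 in null cells (adjusted p = 1.89e-06 and 5e-06). Gins1 was lower in both lines, at -0.50 ± 0.09 in null Eα and -0.91 ± 0.09 in null cells (adjusted p = 0.000763 and 9.44e-06). Cdc45, the helicase partner of GINS, fell, with differences from flox of -0.55 ± 0.07 in null Eα and -0.74 ± 0.07 in null cells (adjusted p = 0.00012 and 1.12e-05), and Mcm10, a factor of origin firing, also fell in both, with differences of -0.64 ± 0.09 in null Eα and -0.88 ± 0.09 in null cells (adjusted p = 0.000128 and 1.02e-05). Quantile normalization ended the null Eα calls of Cdc45 (-0.16) and Gins1 (-0.11), and cyclic loess that of Gins1 (-0.17). Gins2 and Gins4 lie on chromosome 8, where brighter genes moved by -0.68 in null Eα and -0.54 in null cells, and both kept their calls with each chromosome centred.

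The sliding clamp and its 5-subunit loader were split. Of these 6 genes, 4 were called lower and 1 higher in each line. The 66.7% called lower stand beside 53.7% in null Eα and 46.2% in null cells within the level range. Rfc5, a small loader subunit, read 10.35, 10.29 and 10.17 on the null Eα arrays, 9.56, 9.67 and 9.57 on the null arrays, and 11.50, 11.63 and 11.55 on the flox arrays. Null Eα lay between null, the lowest, and flox, with no overlap. Rfc5 fell in both lines, with differences of -1.29 ± 0.08 in null Eα and -1.96 ± 0.08 in null cells (adjusted p = 4.11e-07 and 1.71e-08). Rfc2, another small subunit of the same loader, read 9.45, 9.46 and 9.56 on the null Eα arrays, 9.59, 9.52 and 9.44 on the null arrays, and 9.14, 9.09 and 9.07 on the flox arrays. Both lines lay above every flox array, and Rfc2 rose by 0.39 ± 0.07 in null Eα and 0.42 ± 0.07 in null cells (adjusted p = 0.000883 and 0.000577). It was the 1 gene of the 43 called higher in null Eα cells under every alternative tried. Rfc3 was lower in both lines, at -0.82 ± 0.09 in null Eα and -0.65 ± 0.09 in null cells (adjusted p = 3.67e-05 and 0.000177), and Rfc4 also fell in both, with differences of -0.80 ± 0.10 in null Eα and -0.68 ± 0.10 in null cells (adjusted p = 6.75e-05 and 0.000192). Rfc1, the large subunit, differed by 0.03 ± 0.07 in null Eα and 0.16 ± 0.07 in null cells (adjusted p = 0.68 and 0.0729), and all 4 scalings called it higher in null cells (0.24 to 0.39).

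Pcna, the clamp itself, fell, with differences from flox of -0.27 ± 0.07 in null Eα and -0.34 ± 0.07 in null cells (adjusted p = 0.00679 and 0.00165), which left 83.2% and 79.0% of the flox signal, and the null Eα call was lost under 3 scalings (-0.17 to -0.05). Its 2 features gave null differences of -0.34 and -0.29, and whether the kept feature lies in Pcna or in a copy elsewhere was not checked, since no feature positions were used here. Rfc3 and Rfc5 are shown as 2 loader genes that fell, of which Rfc3 has an E2F word at -10 to -3 (chr5:151651209-151651388, minus strand) and Rfc5, the gene with the larger fall, has none of the words in its window (chr5:117389024-117389203 shown, minus strand):
Rfc3: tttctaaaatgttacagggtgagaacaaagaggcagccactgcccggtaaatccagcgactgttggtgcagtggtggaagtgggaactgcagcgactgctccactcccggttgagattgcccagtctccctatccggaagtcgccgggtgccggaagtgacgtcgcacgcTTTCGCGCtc
Rfc5: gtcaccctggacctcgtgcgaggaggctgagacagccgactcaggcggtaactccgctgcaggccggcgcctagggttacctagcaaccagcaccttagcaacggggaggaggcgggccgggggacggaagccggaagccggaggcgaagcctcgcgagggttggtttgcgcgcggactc

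The polymerase and primase genes held the largest changes. Of 8 genes, 6 were called lower and 1 higher in null Eα cells, and 7 lower and 1 higher in null cells. Within the level range 53.7% were called lower in null Eα and 46.2% in null cells. Pole2, the second subunit of the leading-strand polymerase ε, read 7.96, 7.96 and 8.15 on the null Eα arrays, 7.84, 7.47 and 7.59 on the null arrays, and 9.56, 9.68 and 9.63 on the flox arrays. Both lines lay more than 1 unit below every flox array. Pole2 fell in both lines, with differences of -1.60 ± 0.10 in null Eα and -1.99 ± 0.10 in null cells (adjusted p = 6.33e-07 and 1e-07). Pold2, the accessory subunit of the lagging-strand polymerase δ, read 9.15, 9.09 and 9.44 on the null Eα arrays, 9.51, 9.65 and 9.61 on the null arrays, and 11.40, 11.41 and 11.34 on the flox arrays, with null Eα lowest. It was lower in both lines, at -2.15 ± 0.10 in null Eα and -1.80 ± 0.10 in null cells (adjusted p = 8.2e-08 and 1.34e-07), which left 22.4% and 28.8% of the flox signal. Pold2 lies on chromosome 11, and it stayed called lower in both lines with each chromosome centred. Pole, the catalytic subunit of polymerase ε, read 9.97, 9.97 and 9.95 on the null Eα arrays, 9.65, 9.48 and 9.48 on the null arrays, and 10.60, 10.58 and 10.58 on the flox arrays, with null Eα between null, the lowest, and flox and no overlap. It fell, with differences from flox of -0.62 ± 0.07 in null Eα and -1.05 ± 0.07 in null cells (adjusted p = 3.34e-05 and 5.87e-07), while Pold1, the catalytic subunit of polymerase δ, fell in both lines, with differences of -0.62 ± 0.08 in null Eα and -0.54 ± 0.08 in null cells (adjusted p = 7.56e-05 and 0.000201).

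The 4 genes of the polymerase α and primase complex, which starts each strand, went different ways. Prim2, the large primase subunit, read 8.43, 8.64 and 8.66 on the null Eα arrays, 8.67, 8.60 and 8.60 on the null arrays, and 9.61, 9.64 and 9.72 on the flox arrays. Both lines lay about 1 unit below flox, with called differences of -1.08 ± 0.08 in null Eα and -1.04 ± 0.08 in null cells (adjusted p = 1.77e-06 and 1.78e-06). Prim1, the catalytic primase subunit that pairs with it, read 9.95, 10.00 and 9.99 on the null Eα arrays, 10.13, 10.13 and 10.04 on the null arrays, and 9.66, 9.79 and 9.86 on the flox arrays. It was above every flox array in both lines and rose by 0.21 ± 0.07 in null Eα and 0.34 ± 0.07 in null cells (adjusted p = 0.0289 and 0.00299). The null Eα call of Prim1 was lost without null Eα replicate 2 or 3 and without flox replicate 1 or 2. Pola1, the catalytic subunit of polymerase α, read 9.31, 9.46 and 9.42 on the null Eα arrays, 9.10, 8.82 and 8.71 on the null arrays, and 9.11, 9.17 and 9.29 on the flox arrays, so null Eα lay above every flox array and null below. Pola1 differed by 0.20 ± 0.10 in null Eα and fell by 0.31 ± 0.10 in null cells (adjusted p = 0.112 and 0.0272). All 4 scalings called it higher in null Eα cells (0.28 to 0.57), and 3 of them ended the null call (-0.23 to -0.08), as did leaving out null replicate 2 or 3 or flox replicate 2 or 3. Without null replicate 1 the null Eα difference of Pola1 was called higher. Pola2 was lower in both lines, at -0.69 ± 0.07 in null Eα and -0.71 ± 0.07 in null cells (adjusted p = 1.94e-05 and 1.21e-05). Of the 2 polymerase genes with the largest falls, Pole2 has an E2F word at 11 to 18 (28 bases from chr12:69228163-69228190, minus strand) and Pold2 has none in its window (chr11:5878257-5878436 shown, minus strand):
Pole2: gtcggcggtgGCGCCAAAtcgcgaacat
Pold2: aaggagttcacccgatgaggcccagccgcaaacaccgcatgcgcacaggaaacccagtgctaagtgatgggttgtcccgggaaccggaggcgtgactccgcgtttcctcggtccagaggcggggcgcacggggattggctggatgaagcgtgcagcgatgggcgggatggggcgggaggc

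**Figure D4:**
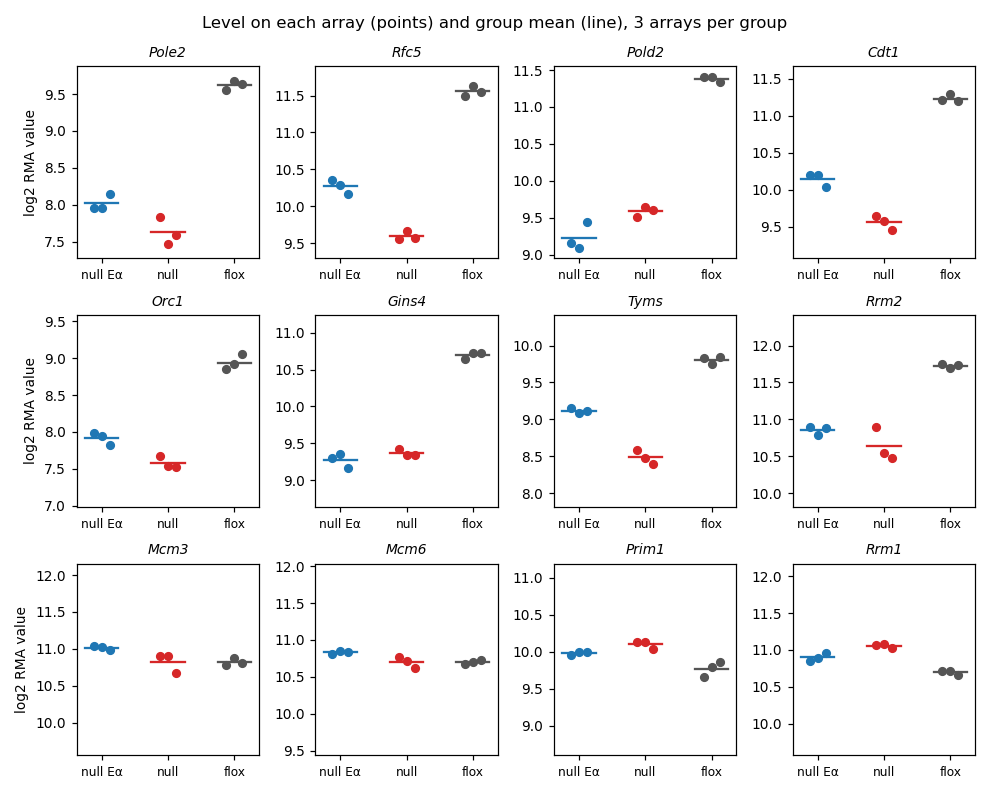
Log2 RMA values of 12 replication genes on each array (points) with group means (lines), 3 arrays each for null Eα, null and flox cells; the vertical axes differ in position but span the same range. Pole2, Rfc5, Pold2, Cdt1, Orc1, Gins4, Tyms and Rrm2 lie lower in both lines than in flox cells, Prim1 and Rrm1 lie higher, and Mcm3 and Mcm6 overlap between null and flox cells.

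RPA coats the single strands behind the helicase. Rpa2, its middle subunit, read 10.31, 10.23 and 10.08 on the null Eα arrays, 9.71, 9.62 and 9.53 on the null arrays, and 10.11, 10.12 and 10.10 on the flox arrays. Null was below flox on every array, and null Eα overlapped flox. Rpa2 differed by 0.10 ± 0.08 in null Eα cells and fell by 0.49 ± 0.08 in null cells (adjusted p = 0.301 and 0.000461), and 3 scalings called it higher in null Eα cells (0.32 to 0.40). Rpa1, the large subunit, fell, with differences from flox of -0.57 ± 0.08 in null Eα and -0.43 ± 0.08 in null cells (adjusted p = 0.000187 and 0.00123). Rpa1 lies on chromosome 11, and with each chromosome centred its differences were 0.03 and -0.19 and neither was called. Of the 2 genes that finish lagging-strand fragments, Fen1, the flap nuclease, read 9.0, 9.02 and 8.89 on the null Eα arrays, 8.96, 8.83 and 8.68 on the null arrays, and 8.71, 8.78 and 8.71 on the flox arrays. It rose by 0.23 ± 0.08 in null Eα cells and differed by 0.09 ± 0.08 in null cells (adjusted p = 0.0328 and 0.387). The null Eα call was lost without null Eα replicate 1 or 2 or any 1 of the flox arrays. Quantile normalization, cyclic loess and chromosome centring called Fen1 higher in null cells (0.29 to 0.34). Lig1, the ligase, fell in both lines, with differences of -0.21 ± 0.07 in null Eα and -0.28 ± 0.07 in null cells (adjusted p = 0.0242 and 0.00662). Under quantile normalization, cyclic loess and chromosome centring neither call of Lig1 held, and its null Eα difference was 0.01 to 0.08. The null Eα call of Lig1 was also lost without null Eα replicate 2 or flox replicate 2 or 3.

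The subunits of ribonucleotide reductase, which makes deoxynucleotides, moved in opposite directions. Rrm2, the small subunit and the one whose level follows S phase, read 10.90, 10.79 and 10.88 on the null Eα arrays, 10.90, 10.54 and 10.48 on the null arrays, and 11.75, 11.70 and 11.74 on the flox arrays. Both lines lay below every flox array, and Rrm2 was lower in both lines, at -0.87 ± 0.10 in null Eα and -1.09 ± 0.10 in null cells (adjusted p = 5.49e-05 and 8.94e-06). Rrm1, the large subunit, read 10.85, 10.89 and 10.96 on the null Eα arrays, 11.06, 11.08 and 11.03 on the null arrays, and 10.72, 10.71 and 10.66 on the flox arrays. It was highest in null and lowest in flox cells, with rises of 0.20 ± 0.07 in null Eα and 0.36 ± 0.07 in null cells (adjusted p = 0.021 and 0.000877), of which the null Eα call was lost without null Eα replicate 3 or flox replicate 2 or 3. Tyms, thymidylate synthase, read 9.16, 9.08 and 9.12 on the null Eα arrays, 8.59, 8.48 and 8.39 on the null arrays, and 9.83, 9.75 and 9.84 on the flox arrays. Its groups did not overlap, and it fell, with differences from flox of -0.69 ± 0.07 in null Eα and -1.32 ± 0.07 in null cells (adjusted p = 2.58e-05 and 1.83e-07). Tk1, thymidine kinase, read 8.91, 8.94 and 8.79 on the null Eα arrays, 9.26, 9.23 and 9.09 on the null arrays, and 9.52, 9.50 and 9.40 on the flox arrays, with null Eα lowest and null between it and flox. It fell in both lines, with differences of -0.59 ± 0.08 in null Eα and -0.28 ± 0.08 in null cells (adjusted p = 0.000106 and 0.012), and its other feature stood at -1.05 ± 0.09 in null Eα and -0.75 ± 0.09 in null cells. Whether the kept Tk1 feature lies in the gene or in a copy elsewhere was not checked either. With each chromosome centred that feature, assigned to chromosome 11 through its gene, differed by 0.01 and -0.03, and all 4 scalings ended its null call (-0.19 to -0.03).

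The E-type cyclins activate the kinase that starts S phase. Ccne1 was lower in both lines, at -0.67 ± 0.10 in null Eα and -0.75 ± 0.10 in null cells (adjusted p = 0.000358 and 0.000137). Ccne2 read 7.21, 7.04 and 7.53 on the null Eα arrays, 8.01, 7.68 and 7.50 on the null arrays, and 7.79, 7.86 and 7.99 on the flox arrays. Null Eα lay below flox on every array, and null overlapped flox. Ccne2 fell by 0.62 ± 0.15 in null Eα cells and differed by -0.15 ± 0.15 in null cells (adjusted p = 0.00471 and 0.42), and quantile normalization (-0.26) and cyclic loess (-0.32) ended the null Eα call. Its standard error of 0.15 was the largest among the 43 genes.

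The comparison of null Eα with null cells asks what the E-cadherin fusion changes when β-catenin is absent. Most replication genes were not called. Of the 43 genes 9 were called higher in null Eα cells, 5 lower and 29 not called. Over all genes 13.6% were called higher and 18.1% lower, and within the level range 15.5% higher and 32.2% lower. The median difference was 0.09, against 0.05 over all genes and -0.09 within the level range. After quantile normalization 17 genes were called higher and 1 lower, against 2980 higher and 3093 lower of all 19938 genes. Without null replicate 1 the counts were 14 higher and 4 lower, with Mcm4, Mcm5, Mcm10, Cdc45 and Rrm2 added to the rises, and the falls numbered 3 without null Eα replicate 1 or 2 or null replicate 2. This comparison shares the null arrays with the comparison of null and flox cells, so values from both are given side by side without an overlap between them.

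The 9 genes called higher were Rfc5, Tyms, Cdt1, Rpa2, Pola1, Pole, Gins1, Pole2 and Orc1. Rfc5, whose arrays are given above, exceeded its null level in null Eα cells by 0.67 ± 0.08 (adjusted p = 0.000147), beside -1.96 ± 0.08 for null against flox. Tyms was higher by 0.63 ± 0.07 (adjusted p = 0.000174), beside -1.32 ± 0.07. For Cdt1 the difference was 0.59 ± 0.08 (adjusted p = 0.000407), beside -1.68 ± 0.08, and for Rpa2 0.59 ± 0.08 (adjusted p = 0.000466), beside -0.49 ± 0.08. In each of these 4 genes every null Eα array lay above every null array. The same held for 22.0% of all genes and 19.8% of those in the level range. Pola1 was higher by 0.52 ± 0.10 (adjusted p = 0.00427), Pole by 0.43 ± 0.07 (adjusted p = 0.0012), Gins1 by 0.41 ± 0.09 (adjusted p = 0.00595), Pole2 by 0.39 ± 0.10 (adjusted p = 0.0157) and Orc1 by 0.34 ± 0.08 (adjusted p = 0.0105). All 9 were called higher under the 4 scalings too, and Pole2 lost its call without null replicate 2 or without null replicate 3. The embryonic stem cell markers moved the same way, with 8 of 8 called higher in null Eα cells, and 8 of the 13 fibroblast markers were called lower. Their part in these differences was not tested.

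The 5 genes called lower in null Eα than in null cells were Mcm2, Ccne2, Cdc6, Pold2 and Tk1. The differences were -0.56 ± 0.08 for Mcm2 (adjusted p = 0.000485), -0.47 ± 0.15 for Ccne2 (adjusted p = 0.0353), -0.36 ± 0.09 for Cdc6 (adjusted p = 0.0105), -0.36 ± 0.10 for Pold2 (adjusted p = 0.0173) and -0.31 ± 0.08 for Tk1 (adjusted p = 0.0126). The null Eα and null arrays of Ccne2 overlapped, and those of the other 4 did not. Null Eα lay below null without overlap in 21.0% of all genes and 36.8% of those in the level range. Mcm2 lies on chromosome 6, and Cdc6, Pold2 and Tk1 were assigned to chromosome 11. The brighter genes of these chromosomes shifted by -0.44 and -0.35 between null Eα and null cells. With each chromosome centred the 4 differences were -0.17, 0.00, 0.00 and 0.05, and none was called. The call of Ccne2 was also lost without null Eα replicate 1 or 2, null replicate 1 or 2 or flox replicate 1 or 2, and that of Pold2 without null Eα replicate 1 or 2 or null replicate 2 or 3. No fall in this comparison was called under every alternative tried, while 8 of the 9 rises were (all but Pole2).

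**Figure D5:**
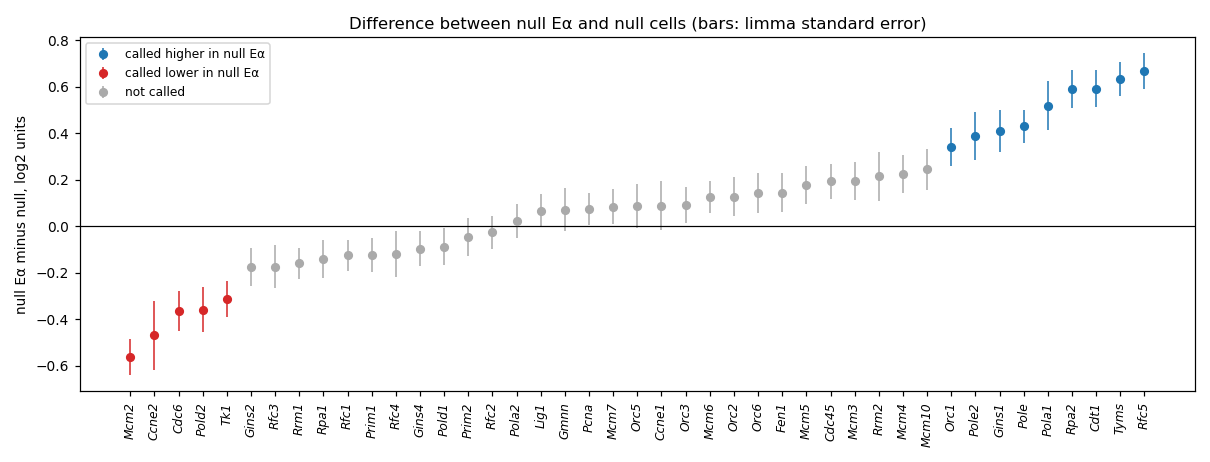
Difference between null Eα and null cells for each of the 43 replication genes (log2 units, vertical axis), ordered by size, with limma standard errors as bars. The 9 called rises at the right reach 0.67 (Rfc5), the 5 called falls at the left reach -0.56 (Mcm2), and the 29 genes between them were not called.

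Chromosomes 6, 8 and 11 carried 10 of the 43 genes and had the lowest shifts in null Eα cells. The brighter genes of chromosome 8 shifted by -0.68 in null Eα and -0.54 in null cells, those of chromosome 11 by -0.62 and -0.19, and those of chromosome 6 by -0.65 and -0.20. The other chromosomes shifted by -0.33 to -0.11 in null Eα and by -0.28 to 0.11 in null cells, so in null cells chromosomes 6 and 11 lay within that range and chromosome 8 lay below it. The 10 replication genes there were Mcm2, Mcm5, Orc6, Cdc6, Cdt1, Gins2, Gins4, Pold2, Rpa1 and Tk1. Of these, 9 were called lower in each line, with medians of -0.92 in null Eα and -0.74 in null cells. Outside them, 20 of 33 genes were called lower and 4 higher in null Eα cells (median -0.49), and 23 were called lower and 3 higher in null cells (median -0.54), beside the 53.7% and 46.2% called lower in the level range. Of these 33, 4 fell at least 2-fold in null Eα (12.1%) and 7 in null cells (21.2%). The level range gave 17.5% and 17.4%. The DNA content of the lines was not measured here, and its part in the chromosome shifts was not tested.

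Other genes of the pathway came from lists chosen by function. Of 32 other replisome and origin factors, 12 were called lower and 5 higher in null Eα cells (median -0.15), and 14 lower and 7 higher in null cells (median -0.22). The share called lower in null Eα cells, 37.5%, lay under the 53.7% of the level range. In null cells it was 43.8%, near the 46.2% of the level range, so that count shows nothing particular to this list. Over all genes the shares were 31.6% and 28.7%, and the list also holds genes dimmer than the level range. Rpa3, the third RPA subunit, fell, with differences of -3.38 ± 0.16 in null Eα and -2.29 ± 0.16 in null cells (adjusted p = 9.35e-08 and 7e-07). Pole4, a small subunit of polymerase ε, fell, with differences of -2.25 ± 0.09 in null Eα and -2.10 ± 0.09 in null cells (adjusted p = 4.65e-08 and 2.73e-08). Both lie on chromosome 6. Ticrr, which brings Cdc45 to the helicase, fell by 2.28 ± 0.12 in null cells and stood higher in null Eα cells than in null ones by 1.19 ± 0.12 (adjusted p = 9.1e-08 and 5.11e-05). Among the rises, Top1, a topoisomerase, was higher by 0.65 ± 0.09 in null Eα and 0.93 ± 0.09 in null cells. Orc4, the remaining subunit of the origin recognition complex, was higher by 0.39 ± 0.10 in null Eα and 0.59 ± 0.10 in null cells. Tipin, of the fork protection complex, rose by 0.66 ± 0.07 in null Eα cells. Of 8 other nucleotide enzymes, 3 were called lower and 1 higher in null Eα, and 3 lower and 2 higher in null cells, 37.5% lower in each line. Dtymk, thymidylate kinase, fell, at -0.81 ± 0.08 in null Eα and -1.13 ± 0.08 in null cells. Umps, of pyrimidine synthesis, rose by 0.67 ± 0.10 in null Eα and 0.71 ± 0.10 in null cells.

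Genes of E2F, the pocket proteins and S phase entry had medians close to those of the replication genes. Of 21 genes, 14 were called lower and 2 higher in null Eα cells (median -0.60), and 14 lower and 3 higher in null cells (median -0.59), 66.7% lower in each line against 53.7% and 46.2% in the level range. E2f1, an activator E2F, read 7.63, 7.63 and 7.81 on the null Eα arrays, 7.04, 7.03 and 7.31 on the null arrays, and 9.11, 9.12 and 9.22 on the flox arrays, with null Eα between null, the lowest, and flox and no overlap. It fell, at -1.46 ± 0.09 in null Eα and -2.03 ± 0.09 in null cells (adjusted p = 6.89e-07 and 5.27e-08), and exceeded its null level in null Eα cells by 0.57 ± 0.09 (adjusted p = 0.00141). E2f3, also an activator, fell (-1.55 ± 0.15 in null Eα and -1.44 ± 0.15 in null cells), calls that its dimmest feature did not give. E2f4, the main partner of the pocket proteins in resting cells, fell (-1.33 ± 0.09 in null Eα and -1.42 ± 0.09 in null cells). Rb1, the retinoblastoma gene, differed by -0.60 ± 0.29 in null Eα and -0.29 ± 0.29 in null cells and was not called, with null Eα arrays of 7.58, 7.09 and 8.58, and without the last of these it was called lower in null Eα cells. E2f6, a repressor E2F, rose by 0.48 ± 0.09 in null cells and the difference between null Eα and null cells was -1.26 ± 0.09, a fall. Slbp, the histone mRNA binding protein of S phase, rose by 0.54 ± 0.10 in null Eα and 0.69 ± 0.10 in null cells.

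Of 25 genes of mitosis, 12 were called lower and 4 higher in null Eα cells (median -0.22), and 11 lower and 5 higher in null cells (median -0.12). The shares called lower, 48.0% in null Eα and 44.0% in null cells, are near those of the level range (53.7% and 46.2%), so the counts show nothing particular to this list. Aurkb, a mitotic kinase, fell, at -1.73 ± 0.09 in null Eα and -1.19 ± 0.09 in null cells. Ube2c, of the anaphase ubiquitin system, fell too, at -1.16 ± 0.08 in null Eα and -1.51 ± 0.08 in null cells. Nuf2, of the kinetochore, rose by 0.59 ± 0.09 in null Eα and 0.85 ± 0.09 in null cells, and Cenpe, a kinetochore motor, rose by 0.92 ± 0.16 in null cells. Mki67, a marker of cycling cells, differed from flox by -0.25 ± 0.12 in null Eα and 0.12 ± 0.12 in null cells and was called in neither, while null Eα against null gave -0.37 ± 0.12 (adjusted p = 0.0379), a call lost when any 1 array other than null Eα replicate 3 was left out. The difference between the medians of the lists was not tested.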

How the data were processed

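Per the submitters' processing notes, the authors made the deposited log2 values with RMA (version not given), 1 value per transcript cluster and array. Whether the 9 arrays were normalized together is not given in the sources used here. The values were used as deposited. Of 35556 features, 21789 were paired with 1 gene symbol, 1621 with several and 12146 with none; the first set was used, and the feature with the highest mean over all arrays was kept, which gave 19938 genes. Group means of all 9 arrays were estimated together by lmFit and eBayes of limma 3.58.1 (R 4.3.3), with 6 residual degrees of freedom and 4.04 from the prior. Calls in each of the 3 comparisons required an adjusted p under 0.05 (Benjamini-Hochberg over 19938 genes). Errors after ± are limma standard errors with n = 3 arrays per group, and the number of arrays limits the precision. The fit was tested on simulated data.

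The 43 genes, the lists of related genes and markers and the promoter words were chosen with earlier results of these data known, so the lists are described by counts and medians and have no test of their own. All 43 genes may be named. Values on every array were given for the 8 largest changes per comparison and for called genes moving against the median of the 43. They were also given for Mcm3, Mcm5, Mcm6 and E2f1, and for Rb1 in null Eα cells only. Of the other lists, genes were named from the 3 largest called rises and falls per comparison, along with Ctnnb1, Pou5f1, Nanog, E2f1, E2f4, Rb1 and Mki67. The symbols Impdh2 and Fbn1 had no match and were not analysed here. Promoter windows and chromosome numbers came from RefSeq tables of GRCm38.p6. The 19 alternatives were 4 scalings (quantile, cyclic loess, each array centred on its median, each chromosome centred on its genes with a mean of at least 6.45), leaving out dim genes, averaging features or keeping the dimmest, a trend with robust prior, fitting only the compared groups, a replicate block, and each of the 9 arrays left out. Keeping the dimmest feature was chosen after seeing the data. Python 3.11.15 with matplotlib 3.10.9 drew the figures.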

Additional observations from a re-analysis of the deposited data

How the results depend on the processing

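The counts of called replication genes stayed within 1.5 times the reported ones under all 19 alternatives, at 29 to 35 for null Eα against flox, 34 to 37 for null against flox and 11 to 19 for null Eα against null. The median difference of the 43 genes kept its sign. For null Eα against flox it was -0.25 after quantile normalization, -0.32 after cyclic loess, -0.50 with each array centred and -0.27 with each chromosome centred. For null against flox it was -0.35, -0.42, -0.45 and -0.34 under the same settings, and -0.61 to -0.49 with 1 array left out. For null Eα against null it was 0.20 after quantile normalization, 0.18 after cyclic loess, 0.15 with each chromosome centred and 0.061 to 0.15 with 1 array left out. Under those scalings the medians over all genes were 0.02, 0.02 and 0.14, so the chromosome-centred value is near that of all genes. Of 2451 values of single genes over the 3 comparisons and 19 alternatives, 2295 kept their call or lack of a call. Without a change of sign, 69 gained a call and 74 lost theirs. The other 13 changed sign and had a call in the main fit, in the alternative or in both. Among them, Orc5 and Cdc6 for null Eα against flox had no call in the main fit and gained a call. Changes of sign without a call in either fit are not counted. With each chromosome centred, Orc6 stood at 0.039 for null against flox, and Orc6 at 0.28, Cdc6 at 0.55, Rpa1 at 0.033, Lig1 at 0.074 and Tk1 at 0.014 for null Eα against flox. For null Eα against null, Pold2 stood at 0.002 and Tk1 at 0.048 under that setting. For null Eα against flox, quantile normalization gave 0.28 for Orc5, 0.32 for Cdc6 and 0.081 for Lig1, and cyclic loess gave 0.24 for Cdc6 and 0.008 for Lig1. The cause was not tested.

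Deviations from the group means correlated at -0.035 to 0.258 between same-numbered arrays of different groups, 8 of 9 above 0, and at -0.196 to 0.142 between differently numbered ones. No comparison had all 3 same-number correlations over 0.1, so the numbers were not taken to pair the samples. A fit with a replicate block gave 33, 36 and 14 called replication genes for null Eα against flox, null against flox and null Eα against null, the counts without it. Leaving out dim genes lowered the calls over all genes to 7169 for null Eα against flox and 7288 for null against flox, from 12694 and 11004, with 9969 genes tested. Signal over background was not measured, probes were read only as transcript cluster values, and 3 arrays per group leave small changes undecided.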
